A study of Mus musculus with 6 samples.

Results

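The Sox9 sites described here were the clustered peaks of the embryonic Sox9 ChIP-seq, that is, peaks with at least 1 other summit of the same list within 10 kb. Members also had to lie on an autosome and to have 6 or fewer tags of the IgG control within 250 bp of the summit. Of the 3722 deposited Sox9 peaks, 373 (10.02%) met this rule and formed 200 clusters. The Sox9 library and its IgG control came from embryonic day 12.5 (E12.5) CD1 embryos, and the labels give the tissue as vertebral column in one field and as vertebral column with limb in another. The other libraries were Bapx1 from the vertebral column of E12.5 CD1 embryos whose endogenous Bapx1 carried an S-peptide tag, the same S-Peptide antibody on wildtype vertebral column as its control, V5-tagged Bapx1 overexpressed in NIH3T3 cells (a mouse fibroblast line), and a V5 control from 3T3 cells, which the labels call empty vector in 1 place and wild type in another. With 1 library per condition the replicate error is unknown, and the tests speak of these libraries alone.

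Sox9 is the transcription factor that chondrocyte progenitors require to form cartilage, and it acts with Sox5 and Sox6 on genes of the cartilage matrix. Like other Sox proteins it has a high mobility group domain that binds a short A/T-rich sequence, and it can bind as a dimer to a pair of such sequences facing each other. Several binding sites close to one another are a known feature of enhancers of cartilage genes. Bapx1 (Nkx3.2) is a homeodomain protein needed for the vertebral column, and some earlier evidence places Sox9 upstream of it. In the E12.5 vertebral column, the authors' expression arrays did not show either gene as a target of the other.

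The Sox9 positions had to be corrected before any sequence or gene could be read. In the Sox9 library the furthest tag lay within 1000 bp of the end of the chromosome in mm8 on 16 of 19 autosomes and in mm9 on 0, whereas in the embryonic Bapx1 library the counts were 1 and 15. Around each summit the displacement was therefore measured by matching the IgG tags to the tags of the wildtype S-Peptide library, which is on mm9, in windows of 500 kb. A clear displacement placed 317 of the 373 clustered summits (85.0%) on mm9, with a median size of 67.4 kb. Of 287 clustered summits that the Sox9 and Bapx1 libraries also placed, 280 fell within 50 bp of the same position and 0 differed by more than 200 bp. The unplaced 56 summits included 13 of the 15 on chromosome 7, where the displacement exceeded the range searched. All mm9 positions below are such placed positions and differ from those in the deposited peak list.

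The sequences shown first, because Sox9 can bind them as a dimer, are inverted pairs of the Sox core (CAAAG or CAATG), present in full at a minority of the clustered summits and also found at isolated peaks, in which the cores face each other across a few bases. The following 6 clustered summits had the most Sox9 tags among those with a full pair and a gap of 3 to 5 bp. They are given on the plus strand of mm9, with both cores in capitals.
Intergenic, nearest protein-coding gene Hace1, chr10:45613905-45613948: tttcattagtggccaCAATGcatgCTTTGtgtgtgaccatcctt
Intron of Nfix, chr8:87268098-87268141: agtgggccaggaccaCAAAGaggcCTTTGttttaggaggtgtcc
Exon of the noncoding gene Snhg5, chr9:88417346-88417389: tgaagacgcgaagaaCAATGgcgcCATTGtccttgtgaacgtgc
Intron of Zc3h12d, chr10:7581605-7581648: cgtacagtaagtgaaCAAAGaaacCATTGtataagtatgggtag
Intron of Ell2, chr13:75855868-75855912: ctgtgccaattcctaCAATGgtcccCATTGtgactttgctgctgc
Intergenic, upstream of Notch1, chr2:26391300-26391343: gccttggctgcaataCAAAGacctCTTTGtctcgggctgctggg

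Other strong clustered summits carried the same arrangement with 1 base of 1 core changed. Of the summits with exactly 1 mismatch over both cores, 4 of those with the most Sox9 tags follow, again with the cores in capitals (a summit near Fgd4 tied with the last, at 83 tags).
Intron of Mbnl2, chr14:120787715-120787758: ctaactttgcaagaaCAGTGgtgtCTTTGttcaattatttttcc
Intergenic, nearest protein-coding gene Gm7205, chr5:50587917-50587960: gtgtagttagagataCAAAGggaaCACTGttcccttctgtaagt
Intergenic, nearest protein-coding gene Lonrf2, chr1:38814805-38814848: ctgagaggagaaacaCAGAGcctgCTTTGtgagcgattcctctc
Intergenic, nearest protein-coding gene Gm6728, chr6:136414594-136414637: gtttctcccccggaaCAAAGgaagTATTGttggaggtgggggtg

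The clusters were small. Of the 200 clusters, 149 held 2 members, 10 held 3, 1 held 5, and 40 held a single member whose neighbour was in the list but had too many IgG tags. The distance to the nearest other summit ranged from 187 to 9973 bp, with a median of 4329 bp, and 35 members lay within 500 bp of another summit, so that their counting windows overlapped. The members were chosen by the called Sox9 peak positions and the IgG tags, so these and the other values of the Sox9 peak calling are given only as a description. Members held 9 to 178 Sox9 tags within 250 bp (median 20), against 9 to 191 (median 18) at the 2894 isolated peaks, which met the same rule but had no other summit within 10 kb. Both sets held a median of 3 IgG tags, and the authors' fold enrichment had a median of 13.2 in each. By the authors' false discovery rate (FDR), 85 members (22.8%) and 493 isolated peaks (17.04%) were at or below 5%. Near the edges of the rule, the 46 members with exactly 6 IgG tags had a median of 23.5 Sox9 tags and the 22 clustered peaks just outside, with 7 IgG tags, a median of 28.5. The 15 members whose nearest summit was more than 9000 bp away had a median of 19 Sox9 tags, against 24 at the 21 isolated peaks with a summit within 11000 bp.

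The cluster with the most members lay within an intron of Wwp2 on chromosome 8. Wwp2 encodes a ubiquitin ligase and carries the cartilage microRNA miR-140 within its gene. Its 5 summits spanned 14.5 kb and lay 22.1 to 36.6 kb downstream of the nearest annotated Wwp2 start. In order along the chromosome they held 21, 16, 27, 25 and 53 Sox9 tags against 1, 4, 3, 3 and 5 IgG tags, so the last, at position 109996912, was the highest of the 5. In the same order the authors' FDR was 15.4%, 40.5%, 25.2%, 9.02% and 0.62%. None of the 5 windows held the core CAAAG or CAATG on either strand. The nearest start of any protein-coding transcript in the annotation belonged to Rps26-ps1, a ribosomal pseudogene by its name.

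Among the clusters of 3 members, the summits were usually unequal. At the cluster upstream of Papss2 on chromosome 19, an enzyme that makes the sulfate donor for proteoglycans, the summits 17.9, 13.5 and 5.04 kb before the start held 14, 52 and 34 Sox9 tags, with 0, 4 and 2 IgG tags. In an intron of Gmds on chromosome 13, where the nearest protein-coding start was that of the forkhead gene Foxc1 at 230 to 242 kb, the 3 summits held 73, 12 and 40 Sox9 tags with 1, 3 and 2 IgG tags. A second cluster on chromosome 13, between Foxf2 and Foxc1, held 29, 15 and 16 Sox9 tags. In the Dnm3 region of chromosome 1, which is also the host of microRNAs on the opposite strand, the values were 22, 36 and 14 Sox9 tags against 4, 3 and 3 IgG tags. The cluster near Gm6728 on chromosome 6 held 83, 25 and 37 Sox9 tags.

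Of the other 4 of the 10 largest clusters, 2 were placed as clearly as those above. About 389 kb downstream of the nearest Sox5 start, 3 summits within 0.735 kb held 21, 15 and 19 Sox9 tags, and the windows of such close summits share tags. The cluster upstream of Zfp532 on chromosome 18 held 30, 12 and 20 Sox9 tags. The cluster in Lrrk1 on chromosome 7 held 22, 13 and 115 Sox9 tags and was placed only when displacements up to 9000 kb were searched. A cluster on chromosome 14 with 31, 44 and 13 Sox9 tags was not placed. Across the 136 clusters with at least 2 placed members, the highest summit held a median of 1.47 times the Sox9 tags of the lowest, and in 44 clusters the ratio was 2 or more.

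**Figure D1:**
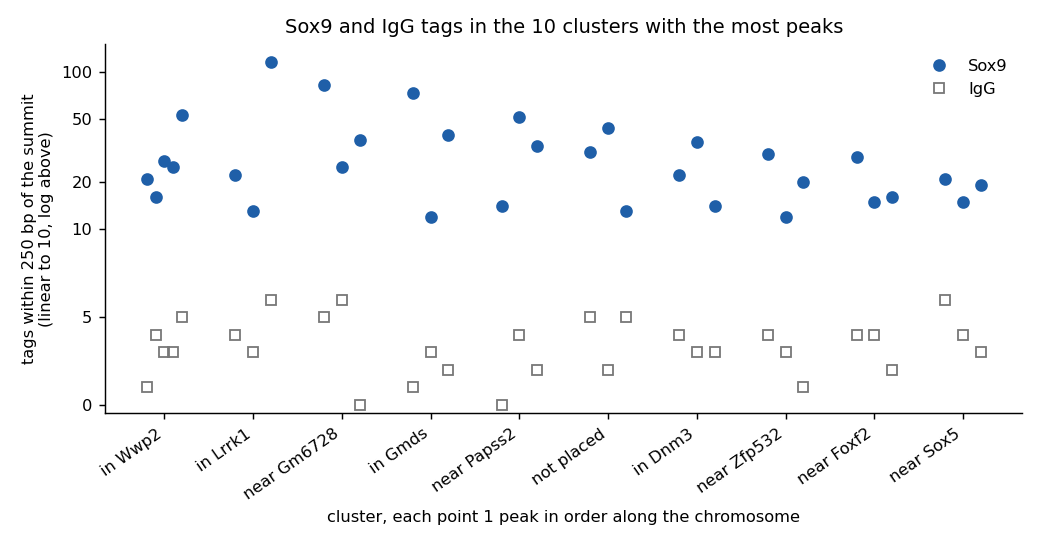
Tags within 250 bp of each summit (y axis, linear up to 10 and logarithmic above) in the 10 clusters with the most members (x axis), with Sox9 as filled circles and IgG as open squares, 1 point per peak and library. Within most clusters 1 summit stood above the others, as in Wwp2 with 53 tags and in Lrrk1 with 115, and every IgG value was 6 or lower because the rule required it.

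The 10 strongest members were spread over 10 clusters. The highest, intergenic on chromosome 10 at 222 kb downstream of the nearest Hace1 start, held 178 Sox9 tags and 4 IgG tags and carries the first sequence above. The next held 143 Sox9 tags and lay in an intron of Nfix, which encodes a nuclear factor I protein. Those in introns of Farp1, Mbnl2 and Sox6 held 107, 103 and 95 tags, that of Lrrk1 held 115, and the last of the 10, near Lonrf2, held 87. Another, on chromosome 6 with 124 tags, was not placed, and the Sox6 and Lrrk1 summits were placed only with the wider search on chromosome 7. The remaining members of the 10 lay near Gm7205 (90 tags) and in Snhg5 (88 tags).

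The Sox motif, defined as the core CAAAG or CAATG after 2 bases that are each A or T, was present at the clustered summits more often than beside them. Within 50 bp of the summit it was found, on either strand, at 100 of 317 placed members (31.5%, exact binomial 95% interval 26.5 to 37.0%), against 91 of 634 windows of the same length 500 bp to either side (14.4%; p = 1.22e-09 by Fisher's exact test, two-sided). Over all 3083 placed peaks of the list the share was 35.9%. The nearest motif centre had a median distance of 18 bp from the summit, and 67 of the 100 members with the motif had one within 25 bp. Read at the deposited positions without correction, 63 of 373 members held the motif, a difference from their flanks of 1.21 percentage points (Fisher's exact test, p = 0.605).

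**Figure D2:**
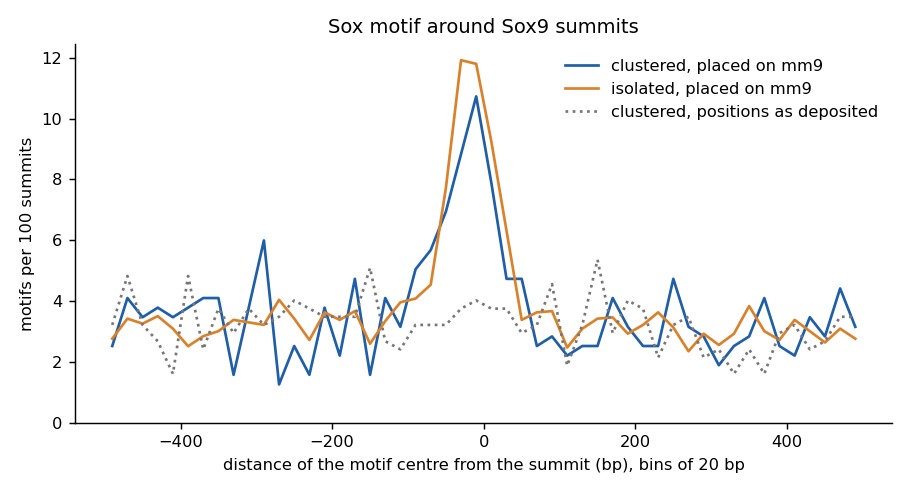
Sox motifs per 100 summits (y axis) by distance of the motif centre from the summit in bp (x axis, bins of 20 bp), for clustered and isolated summits placed on mm9 and for clustered summits at their deposited positions. The placed members rose to 10.7 motifs per 100 summits in the bin just before the summit, the isolated peaks to 11.9 in the bin before that, whereas the deposited positions had no maximum there, with 4.02 in the bin just before the summit and 5.36 in the bin at 150 bp.

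The motif did not follow the number of tags within a cluster. In clusters with at least 2 placed members, the summit with the most tags held it in 45 of 136 cases (33.1%) and the other summits in 47 of 147 (31.97%; Fisher's exact test, p = 0.899), although the median tag number was 27.5 against 16. In 61 of these 136 clusters (44.9%) no placed member held the motif, in 58 exactly 1 did, and in 17 at least 2 did. By distance to the nearest summit, the share was 30.9% within 1000 bp, 26.2% from 1000 to 3000 bp, 30.6% from 3000 to 6000 bp and 35.9% from 6000 to 10000 bp, with no steady trend.

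Against isolated peaks, the share with the motif differed by -5.129 percentage points in members, 31.5% against 36.7% (889 of 2424), a difference that did not pass the test (Fisher's exact test, p = 0.0815). Among peaks with 23 or more Sox9 tags, 41 of 125 members (32.8%) and 333 of 733 isolated peaks (45.4%) held the motif (Fisher's exact test, p = 0.00848). With 16 to 22 tags the motif was at 31.7% of members and 35.6% of isolated peaks (p = 0.512), and with 9 to 15 tags at 29.5% and 30.5% (p = 0.904), by the same exact test. These p-values are not adjusted over the 3 classes. Where the FDR was 5% or lower, the motif lay at 25 of 69 members (36.2%) and 211 of 410 isolated peaks (51.5%; Fisher's exact test, p = 0.0197). When the Sox9 and Bapx1 libraries were used for the placement, the difference over all peaks was -0.83 points (exact p = 0.802).

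Full inverted pairs were most frequent at a gap of 4 bp. With a gap of 4 bp the pair was found at 11 members and with a gap of 3 bp at 3 members, and no other gap up to 20 bp had more than 2 (the everted and tandem orders are not included). A pair with a gap of 3 to 5 bp was present at 16 of 317 members (5.05%, 95% interval 2.91 to 8.07%) and in 1 of 634 flanks (0.158%; Fisher's exact test, p = 2.13e-07). At isolated peaks it was present at 239 of 2424 (9.86%), so that members held it less often (p = 0.00391, same exact test). This difference did not pass the test with 1 peak per cluster (-3.91 points, exact p = 0.104) or with gaps of 3 to 4 bp only (-2.80 points, p = 0.0759). With 9 to 15 Sox9 tags, members and isolated peaks held the pair at 4.5% and 6.2% (exact p = 0.814). With 16 to 22 tags the shares were 2.9% and 9.5% (exact p = 0.0248). With 23 or more they were 7.2% and 14.7% (exact p = 0.0235), not adjusted over the 3 classes.

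Pairs with at most 1 mismatch over both cores were more common, and over all peaks their difference between the sets did not pass the test. They were present at 106 of 317 members (33.4%, 95% interval 28.3 to 38.9%), against 5.21% of member flanks (Fisher's exact test, p = 1.75e-29). Isolated peaks held them at 34.7% (840 of 2424), and the difference of -1.21 points did not pass the test (exact p = 0.706). Among members with an FDR of at most 5% the share was 56.5%, against 53.4% of such isolated peaks (exact p = 0.696). By Sox9 tags, members and isolated peaks held such pairs at 27.3% and 22.2% with 9 to 15 tags (exact p = 0.286), at 26.9% and 38.02% with 16 to 22 tags (exact p = 0.0302), and at 43.2% and 46.4% with 23 or more (exact p = 0.56), not adjusted over the 3 classes. This looser definition was chosen after the full pairs had been counted.

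**Figure D3:**
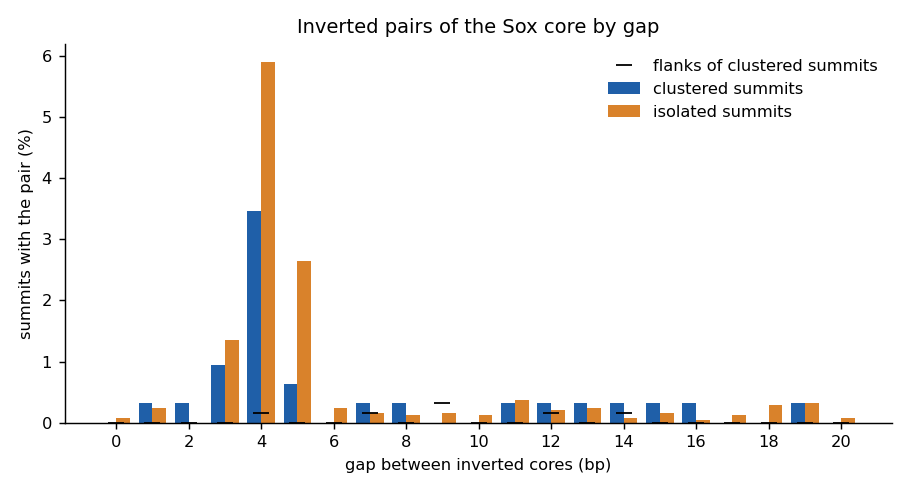
Share of summits in percent (y axis) with an inverted pair of full Sox cores, by the gap between the cores in bp (x axis), for 317 clustered and 2424 isolated summits, with dashes for the mean of the flanks of clustered summits. Both sets peaked at a gap of 4 bp, at 3.47% and 5.90%, and a gap of 5 bp was at 0.631% of clustered and 2.64% of isolated summits.

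Of 8 other motifs, 1 passed the test at members after Benjamini-Hochberg adjustment over the 8. The GC box GGGCGG was present at 17 members (5.36%), against 1.42% of their flanks (Fisher's exact test, adjusted p = 0.00824) and 2.06% of isolated peaks (adjusted p = 0.011). Median G+C content within 250 bp was 45.9% at members and 45.1% at isolated peaks, and its part in this difference was not tested. The NFI recognition sequence TTGGC was at 19.6% of members and 14.4% of flanks (Fisher's exact test, adjusted p = 0.149). The Bapx1 motif (TGAGTG or TAAGTG) was at 11.99% of members, 11.2% of their flanks and 10.2% of isolated peaks, so its share at members was near that of any window of this length. AP-1 (TGACTCA or TGAGTCA), Runx (TGTGGT or TGCGGT), forkhead (TGTTTAC), E-box (CAGCTG) and Tead (GGAATG) motifs, each counted on both strands, were at 1.89%, 9.15%, 3.15%, 7.89% and 6.94% of members, and none of them passed against flanks or isolated peaks. At the 2424 isolated peaks, E-box, Runx and NFI motifs passed against flanks (Fisher's exact test, adjusted p = 5.45e-09, 0.000188 and 0.000188), and the other motifs did not. The E-box, Runx and NFI shares there were 7.76%, 10.2% and 19.9%, against 4.19%, 7.36% and 16.1% of flanks. Flanks of members held E-box and Runx motifs at 4.73% and 7.57%. None of these 3 motifs differed between members and isolated peaks (Fisher's exact test, adjusted p = 0.94 each). With 317 members against 2424 isolated peaks, passing in the larger set alone is not a difference between the sets.

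Distance to gene starts was tested within 5 kb and beyond 25 kb, and neither difference between clustered and isolated summits passed. Of the 317, 67 (21.1%) lay within 5 kb of an annotated transcription start site (TSS) and 147 (46.4%) beyond 25 kb, against 19.5% and 49.9% of isolated peaks (Fisher's exact test, p = 0.499 and p = 0.256). With protein-coding transcripts only, 50 members (15.8%) were within 5 kb and 201 (63.4%) beyond 25 kb, against 12.8% and 63.4% of isolated peaks (Fisher's exact test, p = 0.157 and p = 1). Beyond 100 kb of such a start lay 74 members (23.3%) and 705 isolated peaks (29.1%), which was not tested. An intron held 178 members (56.2%), 131 (41.3%) were intergenic, 4 lay in noncoding exons, 3 in untranslated regions and 1 in a coding exon, whereas 45.05% of isolated peaks were intronic. The latter difference was not tested. Beyond 25 kb of a protein-coding start, the Sox motif was at 30.3% of members and 38.1% of isolated peaks (p = 0.036), from 5 to 25 kb at 33.3% and 34.4% (p = 1), and within 5 kb at 34% and 34.08% (p = 1), by Fisher's exact test and not adjusted over the 3 classes.

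Of the 39 genes in the lists of cartilage matrix and of cartilage enzymes, 9 had a clustered Sox9 summit within 100 kb. Of 21281 protein-coding genes on autosomes, 1.71% had a clustered summit within 100 kb of a start. In the list of cartilage matrix genes the count was 6 of 27 (22.2%), and in the list of enzymes and transporters of cartilage it was 3 of 12 (25%). The lists of sclerotome and somite genes and of BMP and GDF signalling had 2 of 19 and 2 of 21, and the Sox family and the regulators of chondrocyte growth had 1 of 17 and 1 of 24. Limb patterning, hedgehog, osteoblast, neural, skeletal muscle and liver lists had 0 of 23, 11, 13, 19, 14 and 13 genes. In lists this small, 0 is near the 1.71% of all genes and shows no absence. These are descriptions without a test, the lists were chosen with earlier results known, and ChIP gives no level of expression. Isolated peaks, which are more numerous, lay within 100 kb of 18.6% of all genes, of 44.4% of the cartilage matrix list and of 58.3% of the list of cartilage enzymes. Their share was 54.5% in the hedgehog list, 52.4% in BMP and GDF signalling, 37.5% in chondrocyte growth, 35.3% in the Sox family, 30.8% in osteoblast, 26.3% in sclerotome, 26.1% in limb patterning, 21.1% in neural, 7.69% in liver and 7.14% in muscle genes, so it exceeded that of all genes in lists other than cartilage too.

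**Figure D4:**
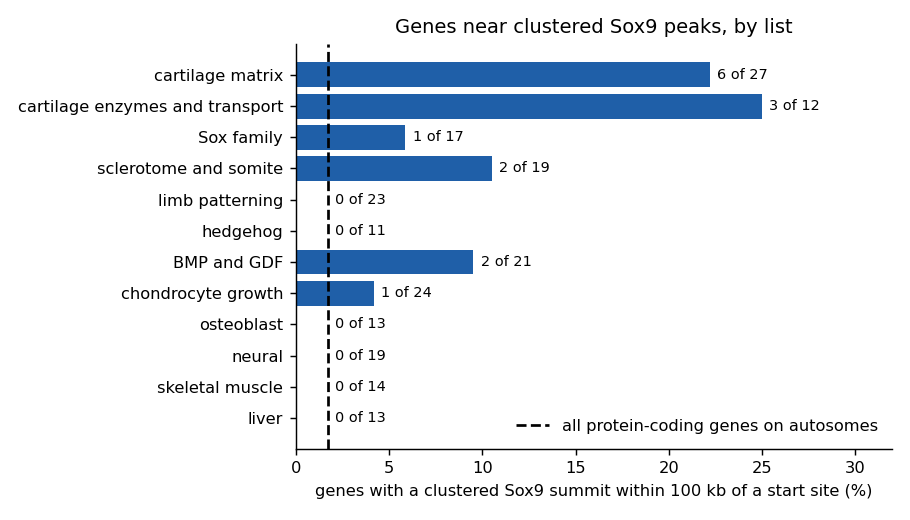
Share of genes in percent (x axis) with a clustered Sox9 summit within 100 kb of a start site, for 12 gene lists (y axis), with the counts beside the bars and a dashed line at 1.71% for all protein-coding genes on autosomes. Both cartilage lists stood at 22.2% and 25%, and 6 lists had no gene, which in lists this small is near the share of all genes.

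The genes for type IX collagen, which coats the fibrils of cartilage, each had a cluster within the gene or its near flank. At Col9a1 the summits held 16 and 38 Sox9 tags against 4 and 6 IgG tags. The higher lay 1.12 kb downstream of an annotated start, but 35.3 kb downstream of the nearest protein-coding start. At Col9a2 the summits lay 0.357 and 1.41 kb downstream of an annotated start, with 17 and 24 Sox9 tags. From the nearest protein-coding start the distances were 0.72 and 1.77 kb. At Col9a3 they held 29 and 20 Sox9 tags. In each pair Sox9 tags exceeded the IgG tags at both summits, as the peak calling required. The authors' FDR was 100% and 3.33% at Col9a1, 100% and 25.9% at Col9a2, and 5.85% and 51.1% at Col9a3.

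Of the other matrix genes, Matn3, which encodes a matrilin, had intronic summits 6.43 and 11.5 kb downstream of the start with 18 and 16 Sox9 tags and 1 and 0 IgG tags. Matn4 had 1 member 15.2 kb downstream with 17 tags and an FDR of 80.9%, which lay 0.09 kb from a start of another gene, Slpi. Epyc, a small leucine-rich proteoglycan, had 1 member 77.5 kb upstream with 22 tags, in an intron of Lum. Of the enzymes, Chst3, a sulfotransferase of chondroitin, had a member 1.06 kb upstream of a start with 42 Sox9 tags and 5 IgG tags.

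Few summits near listed genes held the motif, at cartilage genes and at others. Of the 19 clustered summits of the cartilage lists in 9 clusters, 2 held the Sox motif, 8 held the bare core, 3 held an inverted pair with at most 1 mismatch and 0 held a full pair. Of the 9 summits of the other lists, 1 held the Sox motif, 5 the core and 1 a pair with at most 1 mismatch. Over all 317 members, the motif was at 31.5%, the core at 66.6% (40.7% of the flanks) and the pair with at most 1 mismatch at 33.4%, and these differences were not tested. Median G+C content of the 19 windows was 50.5%. Sox9 tags ranged from 14 to 53 with a median of 22, and 5 of the 19 peaks had an FDR of at most 5%. The windows of 50 bp to either side of the highest summit of the 4 genes with the most Sox9 tags show this, on the plus strand of mm9 with any core in capitals.
Wwp2, chr8:109996862-109996962: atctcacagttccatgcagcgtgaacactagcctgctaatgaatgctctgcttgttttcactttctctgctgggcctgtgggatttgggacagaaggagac
Papss2, chr19:32680939-32681039: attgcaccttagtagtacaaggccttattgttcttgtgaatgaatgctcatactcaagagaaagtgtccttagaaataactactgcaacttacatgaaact
Chst3, chr10:59657993-59658093: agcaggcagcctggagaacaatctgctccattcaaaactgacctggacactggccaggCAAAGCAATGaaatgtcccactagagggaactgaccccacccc
Col9a1, chr1:24237422-24237522: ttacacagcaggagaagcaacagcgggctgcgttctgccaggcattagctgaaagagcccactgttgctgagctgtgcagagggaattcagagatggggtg

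Of the developmental regulators, Sox5 had 3 clusters for which its start was the nearest protein-coding one, with 7 members. The strongest of these, in an intron of Sox5 at 92.4 kb from the nearest start, held 84 Sox9 tags and 2 IgG tags, and its partner at 96.6 kb held 17. The members near Foxc1 and Foxf2 were the same 3 summits of the cluster between both genes, so the 2 genes are not independent. Bmpr1b, a BMP receptor, had intronic members with 11 and 13 Sox9 tags, among the lowest, and an FDR of 100% at both. Id2, a target of BMP signalling, had 1 member 4.91 kb upstream with 22 tags, and Nfatc1 had 1 in an intron with 29 tags.

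Some well-known cartilage genes were reached only by placing summits that lay between clearly placed neighbours, an addition made after seeing the data. In this way 2 members with 15 Sox9 tags each lay 9.38 and 9.2 kb from the start of Acan, the gene for aggrecan, 1 with 21 tags lay 22.9 kb from Col2a1, the gene for type II collagen, and 1 with 20 tags lay 48.4 kb from Fgfr3. The authors' FDR was 100% at both Acan summits, 25.3% at that of Col2a1 and 97.05% at that of Fgfr3. The wider search on chromosome 7 added a Sox6 summit 0.093 kb from a start, with 19 Sox9 tags and 2 IgG tags.

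The embryonic Bapx1 library, which the rule did not use, was enriched at the clustered Sox9 summits. Within 250 bp of the 317 summits it held 4123 tags and the wildtype S-Peptide control 2047, a mean of 13.01 and 6.46 per summit. Scaled to the autosome tags of each library the ratio was 1.67 (exact binomial 95% interval 1.59 to 1.77, counting error only). At isolated summits it was 1.55 (1.52 to 1.58), and the ratio at members relative to that at isolated peaks was 1.08 (1.03 to 1.14). At the deposited positions the ratio at members was 1.01. In NIH3T3 cells the ratio of V5-Bapx1 to its control at the same summits was 1.23 (1.12 to 1.34), from 959 and 1094 tags.

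**Figure D5:**
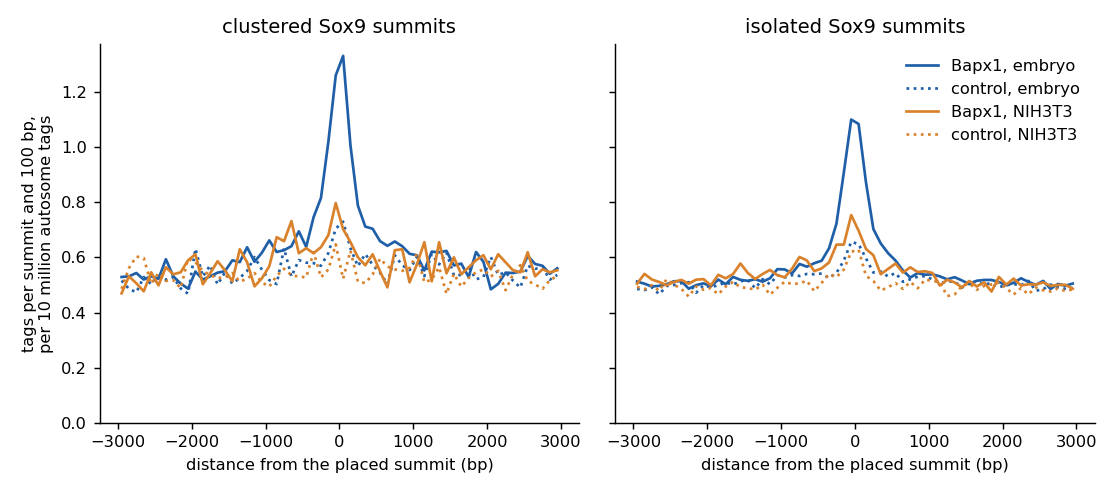
Tags per summit and 100 bp, per 10000000 autosome tags of the library (y axis), by distance from the placed Sox9 summit in bp (x axis), for the Bapx1 and control libraries of embryo and NIH3T3 cells. At clustered summits embryonic Bapx1 reached 1.33 and its control 0.730 in the bin just after the summit, and at isolated summits Bapx1 reached 1.10 in the bin just before the summit.

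The Bapx1 ratio was read in subsets of the members, without a test between them. It was 1.76 (1.65 to 1.88) at the 201 members beyond 25 kb of a protein-coding start and 1.18 (1.03 to 1.34) at the 50 members within 5 kb, and at isolated peaks 1.57 and 1.37 in the same order. Members with and without the Sox motif had ratios of 1.61 (1.46 to 1.78) and 1.702 (1.60 to 1.81). The 38 members with the Bapx1 motif had a ratio of 2.21 (1.90 to 2.57) and the 279 without it 1.60 (1.51 to 1.696), against 1.68 and 1.53 at isolated peaks. Without the 10 summits with the most Bapx1 tags the ratio over all members was 1.59 (1.505 to 1.68). Where the Sox9 peak had an FDR of at most 5%, the ratio was 2.125 (1.90 to 2.38) at 69 members and 1.84 (1.75 to 1.925) at 410 isolated peaks. At the 19 summits of the cartilage lists, 304 Bapx1 and 134 control tags gave 1.89 (1.53 to 2.33), and 5 of them had a Bapx1 peak summit within 1 kb. These 5 lay at Wwp2, Papss2 and Col9a3. The Wwp2 summits with 31 and 32 Bapx1 tags had overlapping windows, so tags between them were counted at both. Among the 19 summits the highest Bapx1 counts were at Wwp2 and Papss2, whereas a Col9a2 summit held 6 Bapx1 and 18 control tags. The ratio was not computed without Wwp2 and Papss2, so it does not describe the cartilage genes alike. At the 9 summits of the other gene lists, 73 Bapx1 and 65 control tags gave 0.934 (0.659 to 1.32), and 0 had such a peak.

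Called Bapx1 peaks were also found more often near clustered than near isolated Sox9 summits. Of the 317 members, 36 (11.4%, 95% interval 8.08 to 15.4%) had a summit of an embryonic Bapx1 peak within 1 kb, against 154 of 2424 isolated peaks (6.35%; Fisher's exact test, p = 0.00203). With 1 peak per cluster, the member with the most Sox9 tags, the difference was 5.55 points (exact p = 0.0098). It was not tested by class of Sox9 tags. The 36 members belonged to 32 clusters, the median distance between the Sox9 and Bapx1 summits was 88.5 bp, and 9 of them held the Sox motif. At the deposited positions 1 placed member would have been counted. A Bapx1 peak of NIH3T3 cells lay within 1 kb of 3.15% of members and 4.08% of isolated peaks (p = 0.54, same exact test).

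The shared summits included several of the named clusters. In Wwp2 the summits with 16 and 27 Sox9 tags lay 72 and 285 bp from a Bapx1 peak summit, and held 31 and 32 Bapx1 tags against 7 and 3 control tags. The windows of these Wwp2 summits overlapped. At Papss2 the summit with 52 Sox9 tags lay 88 bp from one and held 30 Bapx1 tags against 9. In Dnm3 the summit with 36 Sox9 tags lay 119 bp from one, with 33 Bapx1 tags against 7, and in Gmds the summit with 40 Sox9 tags lay 142 bp from one, with 31 against 3. In Col9a3 the distance was 10 bp and the tags 27 against 5. The 2 members with the most Bapx1 tags, chosen here after their values were seen, were in an intron of Cspg4, a membrane proteoglycan gene, with 64 Bapx1 and 4 control tags, and upstream of Foxp4 with 56 and 6. Both held the Bapx1 motif. Most of the 36 shared summits did not, such as that in Ankfn1 with 40 Bapx1 and 7 control tags. The windows of 50 bp to either side of the Cspg4 and Foxp4 summits are given on the plus strand of mm9. The Bapx1 motif of either strand is in capitals.
Cspg4, chr9:56729520-56729620: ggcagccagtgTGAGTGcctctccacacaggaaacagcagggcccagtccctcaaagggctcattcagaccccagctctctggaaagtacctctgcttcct
Foxp4, chr17:48112947-48113047: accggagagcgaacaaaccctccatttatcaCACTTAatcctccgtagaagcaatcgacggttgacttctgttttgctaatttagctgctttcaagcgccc

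The desert around Sox9 itself held clustered summits as well, though none within 100 kb of its start. On chromosome 11, summits 402 and 406 kb downstream of the first Sox9 start held 53 and 51 Sox9 tags against 0 and 5 IgG tags, and the second lay 64 bp from a Bapx1 peak summit with 33 Bapx1 tags against 7 control tags. A further member at -980 kb, upstream of that start, held 12 Sox9 tags and 22 Bapx1 tags against 4 control tags. Of 2 more members placed only between clear neighbours, the partner of the latter at -975 kb held 16 Sox9 and 6 IgG tags with 3 Bapx1 tags against 4, and the other, 440 kb downstream, held 23 Sox9 and 4 IgG tags with 39 Bapx1 tags against 10. The authors' FDR was 1.23% and 1.55% at the summits 402 and 406 kb downstream. It was 68.2% at -980 kb, 40.4% at -975 kb and 100% at 440 kb. These positions were chosen after their values were seen.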

How the data were processed

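Tags were deposited as positions of 35 bp, 12784870 for Sox9, 13330825 for IgG, 24855032 and 20704235 for embryonic Bapx1 and its control, and 9124697 and 13327426 for NIH3T3 Bapx1 and V5; 1 tag per position and strand was kept. The processing notes of the submitters name mm9. The authors called peaks with MACS (p cutoff 1.00e-05) on single libraries, and the deposited lists give the count of tags per peak, the p-value as 10 times −log10, the fold enrichment as a ratio and the FDR in percent.

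Here the members and gene lists were chosen with earlier results of these data known. Tags were counted within 250 bp of the summits at deposited positions (Sox9, IgG) or placed positions (others). mm8 chromosome ends were taken from general knowledge. For placement, binned tags (50 bp, at most 3 per bin) of the IgG and wildtype S-Peptide libraries were correlated over shifts up to 4000 kb, and a shift was clear where the best match exceeded others 1.5 times with at least 1000 tags. On tags shifted by known amounts, 15 of 28 windows were clear, all 15 within 20 bp. Sequence was NCBIM37 (mm9) with GENCODE vM1 starts, RefSeq synonyms served to match symbols, and 216 of 219 listed genes matched. Flanks were windows 500 bp away, and in closely spaced clusters these can overlap another summit. Two-sided Fisher's exact tests and exact binomial intervals (scipy 1.17.1) treat summits or tags as independent and cover counting error only, and motif searches were tested on simulated sequences.

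Named items are the 10 clusters with the most members (ties by Sox9 tags), the 10 members with the most Sox9 tags, and every listed gene with a member within 100 kb. The genome sequence carried no repeat masking, so the planned tests on repeats were not run. Alternatives concerned the rule, the placement, the motif, the window, the scaling and 1 peak per cluster, which was the member with the most Sox9 tags.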

Additional observations from a re-analysis of the deposited data

Results flagged for a closer look

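The enrichment of Bapx1 over its control at the clustered Sox9 summits differed between embryo and NIH3T3 cells. The ratio in the embryo was 1.67 and that in NIH3T3 cells 1.23, and the former divided by the latter was 1.36 (95% interval 1.23 to 1.51 from the tag counts). At isolated Sox9 summits the ratios were 1.55 and 1.18, so the embryo value was the higher there too. The materials also differ in antibody, tag, expression of Bapx1 and depth, which cannot be told apart with 1 library per condition, and the interval covers counting error only.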

How the results depend on the processing

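Libraries could not be paired because each condition had 1 library. Summits and their own flanks are paired, as are members of a cluster, but Fisher's exact test compared the shares without that pairing. Read at the deposited positions, the motif difference from flanks fell to 1.21 points and that from isolated peaks became 1.31, pairs became -0.27 points against flanks and -0.73 against isolated peaks, the embryonic Bapx1 ratio was 1.01 and that of NIH3T3 cells 0.984, the difference in shared Bapx1 peaks was -0.28 points, and 5 genes of both cartilage lists, in place of 9, had a member within 100 kb. The number of members was 209 at 5 kb, 565 at 20 kb, 223 with at most 3 IgG tags and 85 at an FDR of 5%. The IgG and FDR limits applied to the member alone, and its neighbour could be any peak of the list.

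Fewer motifs in members than in isolated peaks passed the test with neighbours at 5 kb (-10.9 points), at 20 kb (-5.02), at an FDR of 5% (-15.2), in a window of 100 bp (-6.76), with the stricter motif, A directly before the core (-6.97), with 23 or more tags (-12.6) and with shifts to 9000 kb (-5.70), but not in the other 10 alternatives run, the deposited positions included. Fewer pairs in members no longer passed with gaps of 3 to 4 bp (-2.80), 1 peak per cluster (-3.91), an FDR of 5% (-5.98) or 1 mismatch at gaps of 3 to 5 bp (-1.21), and with 1 mismatch at 4 bp the difference was 0.70. Members beyond 25 kb of a TSS became fewer at an FDR of 5% (-13.3 points, exact p = 0.0499), and those within 5 kb became fewer with at most 3 IgG tags (-1.64 points, exact p = 0.616). Scaled to isolated peaks, the NIH3T3 ratio of 1.04 no longer excluded 1. In windows of 100 bp, differences of other motifs that had not passed changed sign: Bapx1 against flanks (-0.16) and isolated peaks (-0.33), and AP-1 (0.92), Runx (0.77) and E-box (-2.79) against isolated peaks. The causes were not tested.

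Summits placed between clear neighbours and shifts to 9000 kb were added after seeing the data, as were pairs with mismatches. Of 104 alternatives, 71 kept direction and side of the threshold or, for counts and values without a test, stayed near the value reported. Depth limits single members, of which many have 9 to 20 Sox9 tags.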
